A study of Mus musculus with 48 samples.

Results

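The genes described here are 35 named genes of glucose uptake, glycolysis, lactate and pyruvate handling, oxygen sensing and hypoxia response, chosen by symbol. Of these, 28 have values among the 11313 genes of the exon and intron tables: 17 of glucose and pyruvate metabolism and 11 of oxygen sensing and hypoxia response. The remaining members, Slc2a3, Aldoa, Aldoc, Gapdh, Pgam1, Epas1 and Car9, were not analysed here. Glycolysis turns glucose into pyruvate and lactate, and its genes are among the classical targets of the hypoxia-inducible factors, whose alpha subunits are hydroxylated by the EGLN prolyl hydroxylases when oxygen is present and are then degraded. BMAL1, the protein of the gene Arntl, belongs to the same family of paired DNA-binding proteins as HIF1A and drives the circadian clock through E-box sites.

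The cells were NIH 3T3, an immortalised line of mouse embryonic fibroblasts, as a line with a short hairpin RNA against Bmal1 (shBmal1) and a line with a control hairpin (shCTRL). All cells had been synchronised with medium containing 50% horse serum for 2 h, and each line was collected at 12 time points labelled 24 to 46 in steps of 2, taken here as hours. Each collection gave a library of total RNA and a library of RNA labelled with 4-thiouridine (4sU) and pulled down, so the 4 groups (shBmal1 4sU, shBmal1 total, shCTRL 4sU and shCTRL total) hold 12 libraries each, with 1 library per line and time. The labels do not say whether a line is 1 clone, and a difference between the lines cannot be told apart from a difference between these particular lines that the hairpin did not make. Exon reads of total RNA measure the level of mature transcript, and intron reads of 4sU RNA measure unspliced RNA that was made recently.

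Arntl, the target of the hairpin, averaged 3.74 ± 0.73 RPKM in total exon reads of shBmal1 and 9.25 ± 6.03 RPKM in shCTRL (SD, n = 12 each), and its 24-h swing was 1.52-fold in shBmal1 and 9.10-fold in shCTRL. It was lower in shBmal1 at 9 of 12 time points (-0.92 ± 0.08 log2 units), while its introns were higher in shBmal1, by 0.57 ± 0.08 in 4sU and 0.51 ± 0.06 in total RNA. Read totals were 50977879 to 69829031 for shBmal1 total RNA and 53931845 to 76260143 for shCTRL total RNA. Summed fibroblast markers (10 of 11 in the tables) were 4933 to 5912 RPKM in shBmal1 and 6027 to 6814 RPKM in shCTRL, ranges that do not overlap, while Krt14, the only epithelial marker of 5 in the tables, was 7.22 to 13.3 RPKM in shBmal1 and 2.19 to 4.44 RPKM in shCTRL. Des, the only muscle marker of 5, was 1.48 to 1.98 RPKM in shBmal1 and 0.54 to 0.97 RPKM in shCTRL, again without overlap. Leukocyte markers (3 of 5) summed to 16.9 to 23.2 RPKM in shBmal1 and 13.4 to 20.5 RPKM in shCTRL, and the endothelial Cdh5 (1 of 5) was 0.315 to 0.872 RPKM in shBmal1 and 0.245 to 0.548 RPKM in shCTRL. The part of these marker differences in the results below was not tested. In bulk RNA, fewer cells that express a gene and less of its RNA per cell cannot be told apart.

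The promoter windows of 5 members on which the results turn show how differently these genes carry the short motifs of the 2 systems. The windows run from 250 bases before to 50 bases after the annotated start, read 5′ to 3′ on the gene's own strand from RefSeq, build GRCm38.p6; capitals mark ACGTG or GCGTG, the forms of the hypoxia response core, on either strand, and CACGTG, the canonical E-box, which contains ACGTG on both strands. Pgk1 lies at chrX:106186850-106187149 (+), the first of the annotated Ldha windows at chr7:46845554-46845853 (+), Tpi1 at chr6:124814109-124814408 (-), Bnip3 at chr7:138909457-138909756 (-) and Hk2 at chr6:82774405-82774704 (-).
Pgk1: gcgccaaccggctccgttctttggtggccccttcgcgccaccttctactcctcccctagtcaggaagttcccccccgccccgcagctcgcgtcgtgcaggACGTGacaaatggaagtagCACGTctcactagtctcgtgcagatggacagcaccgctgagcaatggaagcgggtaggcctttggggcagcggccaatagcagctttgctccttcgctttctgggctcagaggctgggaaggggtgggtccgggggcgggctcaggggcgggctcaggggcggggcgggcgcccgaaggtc
Ldha: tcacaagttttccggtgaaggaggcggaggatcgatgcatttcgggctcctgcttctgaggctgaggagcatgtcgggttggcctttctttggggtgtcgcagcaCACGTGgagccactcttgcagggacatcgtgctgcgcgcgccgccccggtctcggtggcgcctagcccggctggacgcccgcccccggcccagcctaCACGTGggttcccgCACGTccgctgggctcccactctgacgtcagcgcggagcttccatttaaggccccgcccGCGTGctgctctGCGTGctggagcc
Tpi1: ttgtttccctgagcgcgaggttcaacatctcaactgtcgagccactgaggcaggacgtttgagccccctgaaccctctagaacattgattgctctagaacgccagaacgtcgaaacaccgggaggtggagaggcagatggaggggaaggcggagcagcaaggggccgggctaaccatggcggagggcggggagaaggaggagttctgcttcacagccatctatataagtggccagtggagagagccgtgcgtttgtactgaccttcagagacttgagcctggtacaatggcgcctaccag
Bnip3: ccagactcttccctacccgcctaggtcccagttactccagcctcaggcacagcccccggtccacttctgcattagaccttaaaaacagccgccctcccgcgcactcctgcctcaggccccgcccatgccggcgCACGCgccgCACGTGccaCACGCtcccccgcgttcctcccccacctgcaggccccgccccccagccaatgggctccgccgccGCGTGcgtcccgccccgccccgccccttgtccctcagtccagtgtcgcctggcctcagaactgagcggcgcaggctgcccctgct
Hk2: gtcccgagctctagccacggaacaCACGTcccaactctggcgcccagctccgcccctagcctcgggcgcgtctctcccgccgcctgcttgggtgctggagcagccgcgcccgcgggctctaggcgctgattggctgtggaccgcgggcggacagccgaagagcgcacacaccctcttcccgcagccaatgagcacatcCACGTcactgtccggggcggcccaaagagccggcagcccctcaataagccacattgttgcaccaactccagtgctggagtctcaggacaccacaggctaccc
The first Ldha window holds 7 matches to the core and 2 E-boxes, which account for 4 of the 7. Another annotated Ldha window, not printed, holds 2 matches and no E-box. The Bnip3 window holds 5 matches and 1 E-box, which accounts for 2 of the 5. Pgk1 and Hk2 hold 2 matches each and no E-box, and the Tpi1 window holds none. Of the 39 annotated windows of the 26 members that have any, 76.9% hold ACGTG or GCGTG and 12.8% hold CACGTG. Among all 32851 RefSeq windows of this length the shares are 43.8% and 7.15%. These windows are of 27025 genes and, unlike those of the members, were not limited to genes with values here. The base composition of the windows was not matched, and a match is a stretch of letters, not a bound site.

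Averaged over the 12 time points, most of the glycolytic enzymes were higher in shBmal1 than in shCTRL. In total exon reads, 13 of the 28 members were higher and 6 lower at an adjusted p under 0.05 (limma on log2 values with 24-h and 12-h terms for each line, Benjamini-Hochberg over all genes), against 34.3% and 33.2% of all 10912 genes tested. With a difference of at least 0.5 on the log2 scale as well, 4 were higher (Pgk1, Ldha, Pfkl and Bnip3) and 1 lower (Ankrd37, on unequal gene lengths), against 5.13% and 8.31% of all genes. The members' median difference was 0.07 on the log2 scale and that of all genes tested 0.01. Among the 17 genes of glucose and pyruvate metabolism 10 were higher and 1 lower, and among the 11 of oxygen sensing and hypoxia response 3 were higher and 5 lower. The lower counts include Ankrd37, whose sign turned to 0.25 (adjusted p = 0.278) on 1 gene length for all libraries. The members' counts stand beside a background in which most genes passed in 1 direction or the other.

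**Figure D1:**
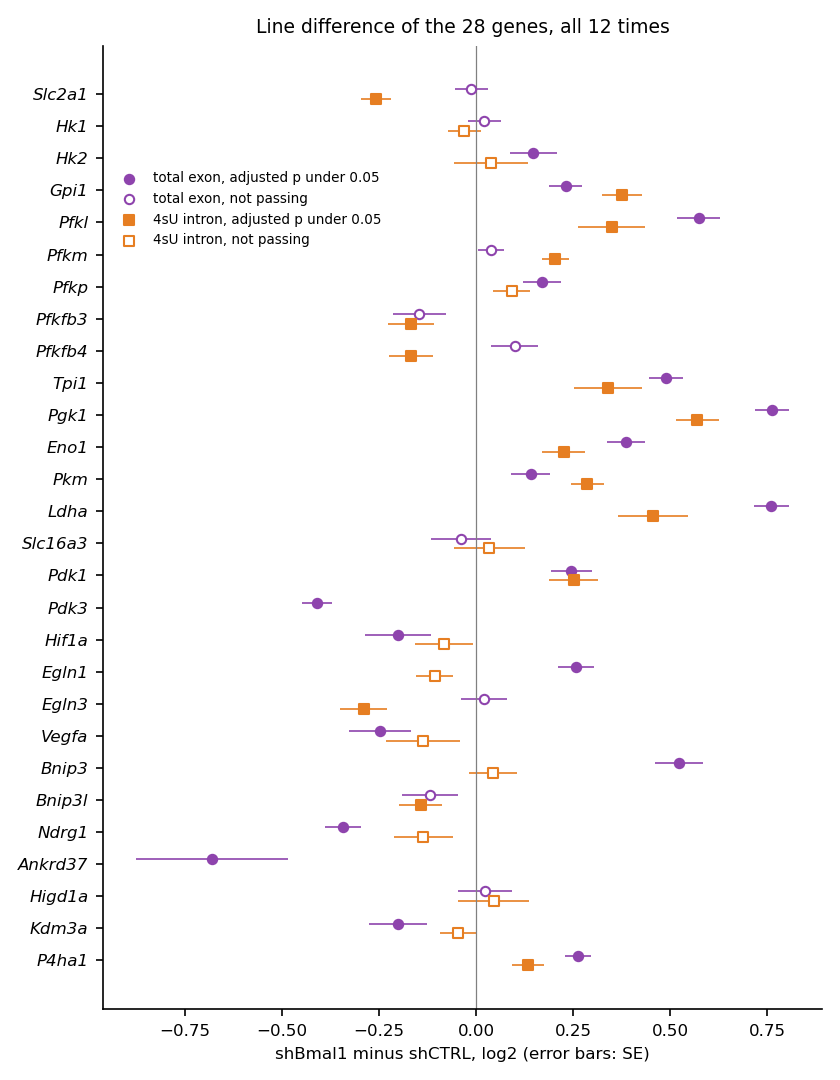
Line difference of the 28 genes, shBmal1 minus shCTRL on the log2 scale (horizontal axis), for total exon reads (purple circles) and 4sU intron reads (orange squares), with SE as bars and filled symbols where the adjusted p is under 0.05. Pgk1 (0.76) and Ldha (0.76) lie farthest right in total exon reads, and Pdk3 and Ankrd37 have no 4sU intron value because they fell under the filter on low values.

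Glucose enters these cells through GLUT1, the product of Slc2a1, and is phosphorylated by hexokinases; here Hk2 alone of the 3 genes passed in total exon reads. In total exon reads Slc2a1 had a lowest, median and highest level of 38.7, 45.7 and 61.8 RPKM in shBmal1 and 38.7, 47.7 and 60.4 RPKM in shCTRL, and the ranges overlap almost fully (difference -0.01 ± 0.04 log2 units, SE). Its 4sU intron reads did differ: they were 1.48, 1.82 and 2.17 RPKM in shBmal1 and 1.964, 2.14 and 2.71 RPKM in shCTRL, lower in shBmal1 at 11 of 12 time points (-0.26 ± 0.04, adjusted p = 2.75e-05). Hk1, the broadly expressed hexokinase, made up 90.5 ± 1.9% of the summed Hk1 and Hk2 RPKM in shBmal1 and 91.2 ± 1.8% in shCTRL (SD, n = 12 each) and did not pass in either layer.

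Hk2, the inducible hexokinase, had 6.29, 7.11 and 10.7 RPKM in shBmal1 and 4.20, 6.80 and 8.47 RPKM in shCTRL as lowest, median and highest. The top shBmal1 value stands at 46 h, where the 4sU intron reads of Hk2 were 0.83 RPKM, against 0.33 to 0.43 RPKM at the other 11 shBmal1 time points. The difference of 0.15 ± 0.06 passed narrowly (adjusted p = 0.0391) and no longer passed without 28, 32, 36, 38, 40 or 44 h (adjusted p up to 0.107).

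The committing step of glycolysis is phosphofructokinase, with liver (Pfkl), muscle (Pfkm) and platelet (Pfkp) subunits. Pfkl had 24.8, 32.4 and 41.7 RPKM in shBmal1 and 18.1, 21.5 and 25.8 RPKM in shCTRL and was higher in shBmal1 at all 12 time points, although the ranges overlap (0.57 ± 0.05, adjusted p = 1.13e-08). Pfkl made up 55.9 ± 4.4% of the summed phosphofructokinase RPKM in shBmal1 and 47.0 ± 3.8% in shCTRL. Pfkm made up 37.8 ± 4.2% in shBmal1 and 45.98 ± 3.52% in shCTRL, with a difference of 0.04 ± 0.03 in its own level, and Pfkp, at 3.66 ± 0.41 RPKM in shBmal1 and 3.23 ± 0.24 RPKM in shCTRL, was higher by 0.17 ± 0.05 (adjusted p = 0.00391).

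Pfkfb3 and Pfkfb4, which make and remove the phosphofructokinase activator fructose 2,6-bisphosphate, were low in both lines, and their total exon differences of -0.15 ± 0.07 and 0.10 ± 0.06 did not pass. Gpi1, which isomerises glucose 6-phosphate, was higher by 0.23 ± 0.04 (adjusted p = 5.94e-05). Tpi1, triosephosphate isomerase, had 238.9, 293 and 382.8 RPKM in shBmal1 and 186.7, 210.7 and 227.8 RPKM in shCTRL. No shBmal1 value of Tpi1 lay within the shCTRL range (0.49 ± 0.04, adjusted p = 4.38e-09).

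The enzymes of the lower part of the pathway, and lactate dehydrogenase after it, held the 2 largest differences among the members. Pgk1, the phosphoglycerate kinase that yields the first ATP of the pathway, had 35.96, 43.0 and 56.6 RPKM in shBmal1 and 22.0, 25.7 and 28.5 RPKM in shCTRL. The ranges do not overlap (0.76 ± 0.04, adjusted p = 6.54e-12).

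Ldha, the A subunit of lactate dehydrogenase, had 157, 211.8 and 286.5 RPKM in shBmal1 and 116.9, 123.2 and 133 RPKM in shCTRL. These ranges do not overlap either (0.76 ± 0.05, adjusted p = 9.18e-12), and the shBmal1 line spanned a much wider range than shCTRL.

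Eno1, enolase, was higher by 0.39 ± 0.05 (adjusted p = 6.91e-07), at 217.6 ± 31.0 RPKM in shBmal1 and 165.4 ± 13.0 RPKM in shCTRL (SD, n = 12 each). Pkm, pyruvate kinase and the most abundant member, had 330.8, 445.7 and 586.9 RPKM in shBmal1 and 358.6, 395.6 and 452.4 RPKM in shCTRL, so shBmal1 reached both higher and lower than shCTRL (0.14 ± 0.05, adjusted p = 0.0171; 0.0594 without 32 h and 0.0538 without 42 h). Several of these enzymes have processed copies elsewhere in the mouse genome, among them Eno1b, and how reads shared between copies were counted is not stated; Eno1b itself differed by 0.33 ± 0.05.

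The genes that steer pyruvate moved in both directions. The kinases of the PDK family restrain pyruvate entry into the mitochondrial citrate cycle. Pdk1, a hypoxia-induced member of the family, had 6.01, 7.09 and 8.84 RPKM in shBmal1 and 5.18, 6.19 and 7.46 RPKM in shCTRL, with overlapping ranges and a difference of 0.25 ± 0.05 (adjusted p = 0.000314). Pdk3 was lower in shBmal1 at all 12 time points (-0.41 ± 0.04, adjusted p = 8.91e-09), at 8.72 ± 0.72 RPKM in shBmal1 and 11.6 ± 0.6 RPKM in shCTRL, with no overlap. Pdk1 made up 45.5 ± 2.4% of the summed Pdk1 and Pdk3 RPKM in shBmal1 and 34.5 ± 2.3% in shCTRL. Slc16a3, the lactate exporter MCT4, reached at most 0.747 RPKM in shBmal1 and 0.699 RPKM in shCTRL and did not pass.

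Hif1a, the oxygen-regulated alpha subunit, had 10.2, 13.8 and 20.7 RPKM in shBmal1 and 11.9, 16.2 and 18.5 RPKM in shCTRL, with the shBmal1 range enclosing that of shCTRL. It was lower by 0.20 ± 0.09 (adjusted p = 0.0435), a call that was lost when any of the 24, 28, 32, 36, 38, 40, 42 or 44 h points was left out (adjusted p 0.0548 to 0.177, and -0.12 without 32 h). Its 4sU intron reads did not pass (-0.08 ± 0.07). HIF1A is controlled mainly at the level of protein stability, which these data do not measure.

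Egln1, the main prolyl hydroxylase acting on HIF1A, had 10.2, 12.1 and 13.8 RPKM in shBmal1 and 9.21, 9.98 and 11.7 RPKM in shCTRL and was higher in shBmal1 at 11 of 12 time points (0.26 ± 0.05, adjusted p = 5.25e-05). Egln3, a hydroxylase that is itself hypoxia-induced, had 2.60, 3.04 and 3.74 RPKM in shBmal1 and 2.56, 3.05 and 3.71 RPKM in shCTRL, nearly the same range (0.02 ± 0.06). Its 4sU intron reads were lower in shBmal1, at 0.095, 0.111 and 0.145 RPKM in shBmal1 and 0.109, 0.144 and 0.172 RPKM in shCTRL (-0.29 ± 0.06, adjusted p = 0.000743).

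Among the hypoxia targets, 2 of 8 were higher and 4 lower in total exon reads, against 34.3% and 33.2% of all genes. Ankrd37, for which no direction can be given, was among the 4. Bnip3, a mitophagy receptor, had 14.3, 18.3 and 25.2 RPKM in shBmal1 and 9.54, 13.1 and 17.0 RPKM in shCTRL, higher in shBmal1 at 11 of 12 time points (0.52 ± 0.06, adjusted p = 2.96e-07). P4ha1, a collagen prolyl hydroxylase subunit, was higher by 0.26 ± 0.03 (adjusted p = 6.28e-07) with ranges that do not overlap. Bnip3l, the relative of Bnip3 with the same function, differed by -0.12 ± 0.07 and did not pass.

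Ndrg1, a stress- and hypoxia-responsive gene, had 70.3, 87.3 and 115.8 RPKM in shBmal1 and 94.4, 108.1 and 136.4 RPKM in shCTRL and was lower in shBmal1 at all 12 time points (-0.34 ± 0.05, adjusted p = 1.52e-06). Vegfa, the endothelial growth factor, had 19.4, 21.3 and 41.1 RPKM in shBmal1 and 23.4, 26.4 and 32.8 RPKM in shCTRL (-0.25 ± 0.08, adjusted p = 0.00934). The 46 h shBmal1 library gave the highest value of Hk2, Vegfa and Ndrg1 in both total exon and 4sU intron reads. With the 46 h point left out, the 4sU intron differences of Ndrg1 (-0.20, adjusted p = 0.00141) and Vegfa (-0.19, adjusted p = 0.0432) passed, which they did not with it (-0.14 each).

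Kdm3a, a histone demethylase, was lower by 0.20 ± 0.07 (adjusted p = 0.0231), a call lost without 28, 32, 36, 40 or 44 h (adjusted p up to 0.1, and -0.13 without 32 h). Higd1a, a small mitochondrial protein, did not pass (0.02 ± 0.07). Ankrd37 rested on 6 to 42 reads per library. Its lower value in shBmal1 (0.206, 0.486 and 0.720 RPKM, against 0.209, 0.828 and 1.26 RPKM in shCTRL, -0.68 ± 0.20) followed the exon length the deposited values were divided by, 875 bases in shBmal1 total RNA and 413 bases in shCTRL total RNA. On 1 length for all libraries the sign turned (0.25, adjusted p = 0.278), so no direction can be given for it. It passed the filter on a mean of 0.5 RPKM with 0.456 RPKM in shBmal1 and 0.827 RPKM in shCTRL.

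**Figure D2:**
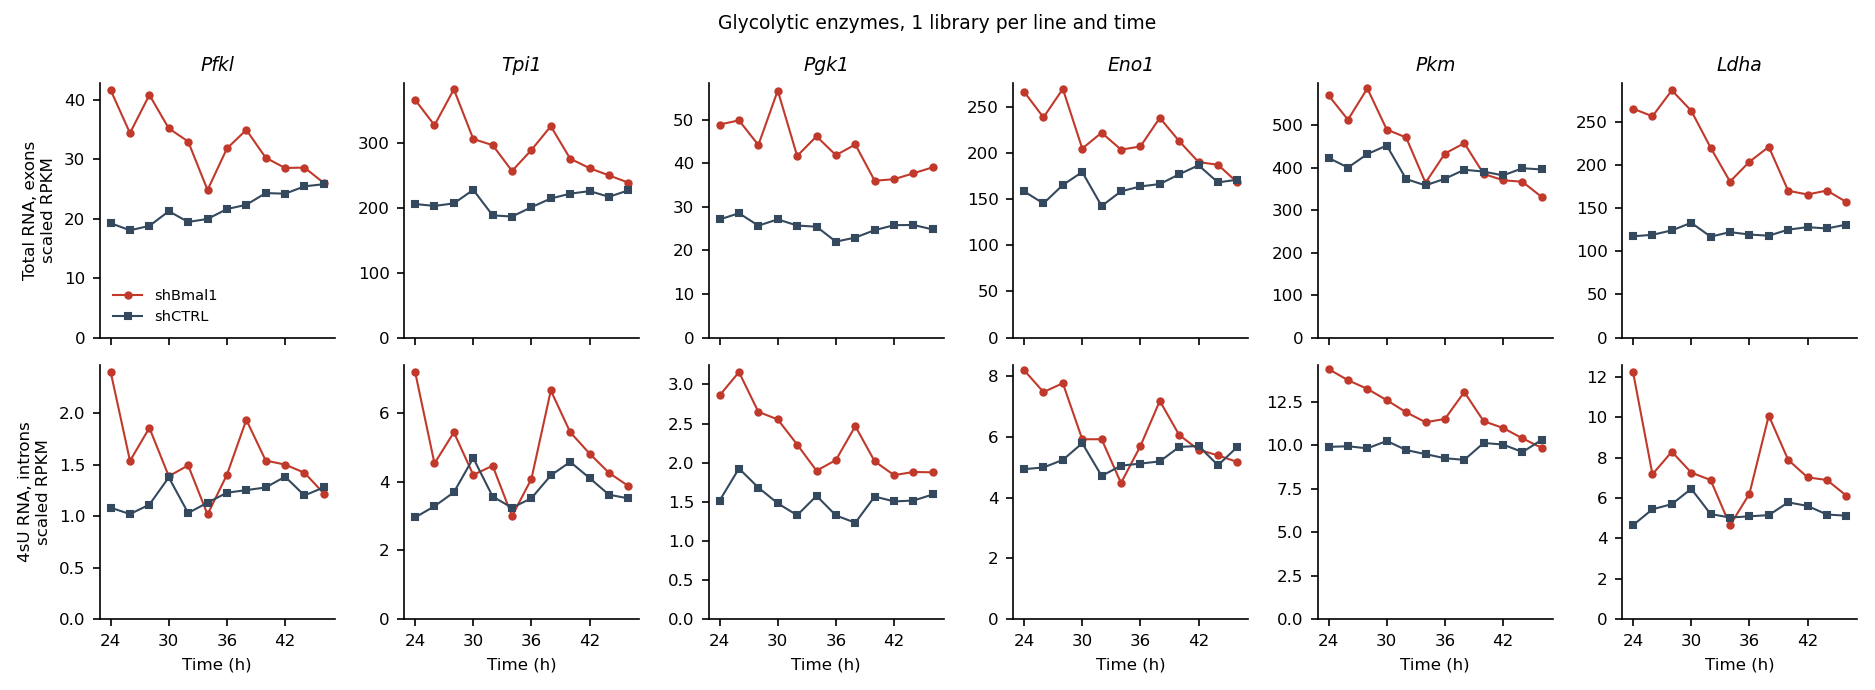
Scaled RPKM (vertical axes, from 0) of 6 glycolytic genes against time in hours, in total exon reads (upper row) and 4sU intron reads (lower row), for shBmal1 (red circles) and shCTRL (dark squares), 1 library per point. In total exon reads the shBmal1 values start above the shCTRL values. Pgk1 stays apart (0.85 log2 units at 24 h and 0.65 at 46 h), and Pkm ends below shCTRL (-0.26 at 46 h). For the other genes the gap narrows. Pfkl in shBmal1 stands at 41.7 RPKM at 24 h and 26.01 RPKM at 46 h, against 19.3 and 25.8 RPKM in shCTRL.

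The gap between the lines was not constant over the time course, as the plot of 6 glycolytic genes shows. A straight line was fitted for each line in total exon reads. In shBmal1 the slope fell in 13 of 28 members and rose in 0, against 13.4% and 11.6% of all genes. At an unadjusted p under 0.05 (limma) these counts were 15 and 1, against 18.9% and 18% of all genes. In shCTRL 2 members rose, Pfkl and Bnip3, and 0 fell, against 2.47% and 3.13% of all genes. At an unadjusted p the shCTRL counts were 7 and 0, against 7.95% and 9.32% of all genes. The slope itself differed between the lines in 11 of 28 members, all with the lower slope in shBmal1, against 2.7% of all genes (limma). The slope was higher in shBmal1 in 0 of 28, against 2.17% of all genes. Unadjusted, the lower and higher counts were 16 and 1, against 9.52% and 8.5% of all genes. The members' median slope was -0.13 log2 units per 10 h in shBmal1 and 0.07 in shCTRL, beside medians of 0.01 in both lines over all genes.

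Ldha had the steepest fall among the members in shBmal1, -0.39 ± 0.04 log2 units per 10 h, against 0.04 ± 0.04 in shCTRL (difference -0.43 ± 0.06, adjusted p = 0.00018). Its shBmal1 level was 265.2 RPKM at 24 h, highest at 28 h and lowest at 46 h, while shCTRL stayed between 116.9 and 133 RPKM. Pfkl fell by 0.24 ± 0.05 per 10 h in shBmal1 and rose by 0.23 ± 0.05 in shCTRL (difference -0.48 ± 0.07, adjusted p = 0.000226). Bnip3 did likewise, with -0.22 ± 0.07 in shBmal1 and 0.25 ± 0.07 in shCTRL (difference -0.47 ± 0.10, adjusted p = 0.00455). Its rise in shCTRL was lost without 28, 42, 44 or 46 h (limma, adjusted p up to 0.121). Its fall in shBmal1 was lost without 46 h (adjusted p = 0.0987).

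The slope differences of Tpi1 (-0.32 ± 0.06, adjusted p = 0.00419), Eno1 (-0.32 ± 0.06, adjusted p = 0.00426), Pfkl, Ldha and Bnip3 passed whichever time point was left out. Of the 11, only Pkm had a negative slope in shCTRL, and Egln1 passed in neither line (-0.09 ± 0.04 in shBmal1, 0.13 ± 0.04 in shCTRL). The differences of Slc2a1 (-0.32 ± 0.09), Pkm (-0.28 ± 0.06), Pdk1 (-0.30 ± 0.08), Egln1 (-0.22 ± 0.06), Egln3 (-0.29 ± 0.07) and Higd1a (-0.39 ± 0.09) passed over all 12 points but were each lost when 46 h was left out, and, for all but Pkm, when at least 1 other point was. Without 46 h the count was 5 and without 24 h it was 7. With 24-h and 12-h terms in the same model the count was 0. Pgk1, by contrast, fell in shBmal1 (-0.21 ± 0.05, adjusted p = 0.00108) with a difference from shCTRL that did not pass (-0.14 ± 0.07). In the last 6 time points alone, an alternative added after the slopes were seen, the line difference of Pkm was 0.00 and that of Slc2a1 was -0.18 (adjusted p = 0.0349).

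**Figure D3:**
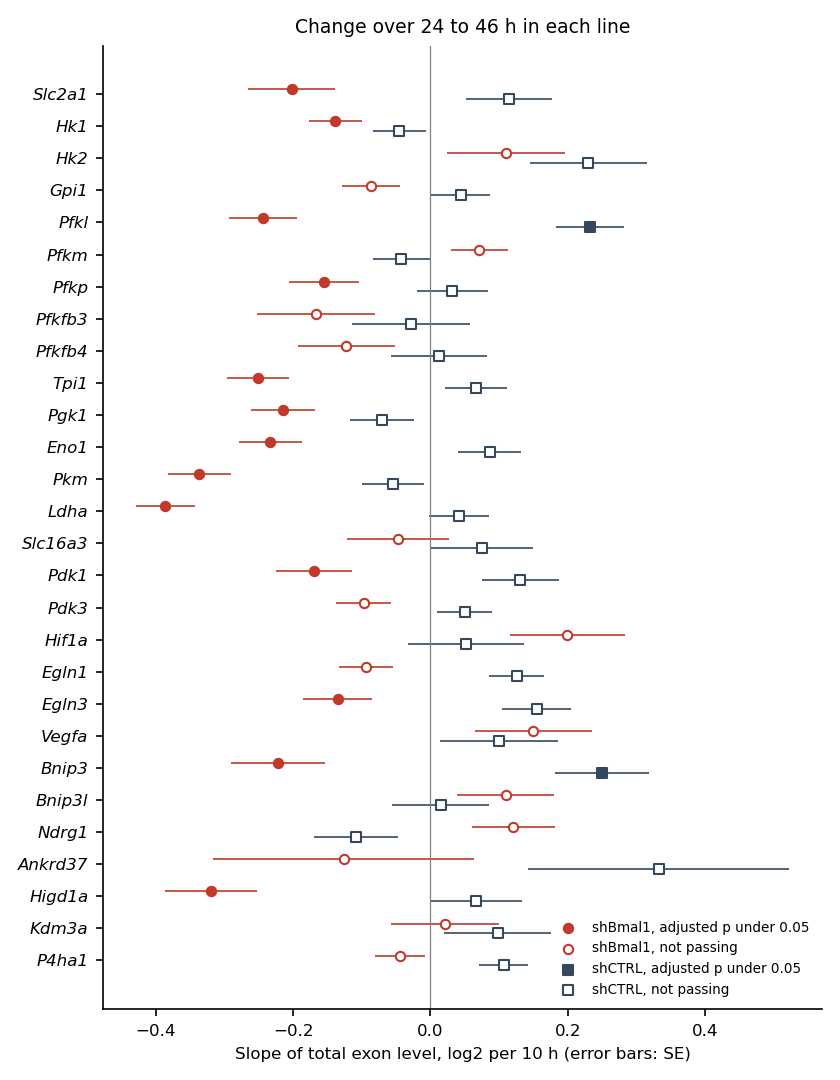
Slope of the total exon level over 24 to 46 h in log2 units per 10 h (horizontal axis) for the 28 genes in shBmal1 (red circles) and shCTRL (dark squares), with SE as bars and filled symbols where the adjusted p is under 0.05. All 13 slopes that passed in shBmal1 are negative, and the 2 that passed in shCTRL, Pfkl and Bnip3, are positive.

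In 4sU intron reads, an addition made after the total exon slopes were seen, 5 of 26 members fell and 1 rose in shBmal1, against 6.57% and 4.39% of all genes, and 1 rose in shCTRL, against 0.733%. The falling count was 2 without 26 h and 3 or 4 without any other point. The rising count was 0 in 6 of the 12 fits that left out a time point in shBmal1 and in 5 in shCTRL. Those that fell were Pgk1 (-0.32 ± 0.06 per 10 h), Higd1a (-0.27 ± 0.09), Eno1 (-0.24 ± 0.07), Pkm (-0.21 ± 0.04) and Gpi1 (-0.20 ± 0.06), and Hif1a rose (0.20 ± 0.06). The slopes differed between the lines for 1 of 26 members, Bnip3 (-0.37 ± 0.08, adjusted p = 0.0408), against 0.219% of all genes. At an unadjusted p under 0.05 the slope was lower in shBmal1 for 12 members and higher for 0, against 5.35% and 4.3% of all genes, and the members' median difference was -0.19, beside -0.01 for all genes. The Bnip3 call was lost when any of 10 time points was left out.

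Rhythms were tested as a 24-h and a 12-h cosine in each line. In total exon reads 7 of 28 members had a 24-h term in shBmal1 (Slc2a1, Tpi1, Pgk1, Pkm, Ldha, Pdk1 and Bnip3), against 11.2% of all genes, with fitted peaks between 26.3 and 30.5 h. In shCTRL 3 of 28 had one (Slc2a1, Hk2 and Ndrg1), against 3.63% of all genes. A 12-h term was found in 0 of 28 members in shBmal1 and 0 in shCTRL, against 0.0183% and 0% of all genes. At an unadjusted p under 0.05 there were 9 and 1 (limma), against 24.3% and 3.23% of all genes. Over a single cycle a falling line and a 24-h wave with an early peak overlap: with a linear term added to the model, 0 of the 28 members kept a 24-h term in shBmal1 and 0 a falling slope. The 24-h count in shBmal1 ranged from 1 (without 40 h) to 10 (without 24 h) with 1 time point left out and was 3 or 4 without 30, 34, 36, 38, 42 or 44 h. The 12-h count in shBmal1 was 7 without 32 h, 6 without 26 h and 4 without 24 h, and the 24-h count in shCTRL was 5 without 32 h. The share of all genes with a rhythm term was not counted in the fits that left out a time point.

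Hk2 had the largest 24-h swing of any member in shCTRL, 1.68-fold from trough to peak with the peak at 36.9 h (adjusted p = 0.00258), where the fitted Arntl peak was at 35.9 h. In shBmal1 its 24-h term did not pass (1.24-fold, adjusted p = 0.234), and the time courses of the lines differed (adjusted p = 0.0463). This difference was past the threshold in 3 of 12 fits that left out a time point (adjusted p 0.0066 to 0.195). Slc2a1 swung 1.28-fold in shBmal1 with a peak at 26.3 h (adjusted p = 0.0203, lost without 24, 28, 38 or 40 h) and 1.39-fold in shCTRL with a peak at 45.3 h (adjusted p = 0.00475), and the difference between the lines did not pass (adjusted p = 0.102). Ndrg1 swung 1.32-fold in shCTRL with a peak at 24.6 h (adjusted p = 0.0345, lost without any of 8 time points).

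The time courses of the lines differed in 3 of 28 members in total exon reads (Hk2, Ldha and Bnip3), against 0.651% of all genes, a count that was 5 without 32 h, 1 without 26 or 30 h and 0 without 28, 36, 38, 40, 42 or 44 h. Ldha swung 1.56-fold in shBmal1 with a peak at 28.8 h and 1.04-fold in shCTRL (adjusted p of the difference 0.0278, lost without any of 7 time points). Bnip3 peaked at 30.5 h in shBmal1 (1.39-fold) and at 42.6 h in shCTRL (1.38-fold, adjusted p = 0.0878), with an adjusted p of the difference of 0.0463 that was lost without any of 8 time points. In 4sU intron reads 2 of 26 members had a 24-h term in shBmal1, Slc2a1 and Pgk1, against 6.03% of all genes. In shCTRL 0 had one, against 1.1%, and the lines differed in 0, against 0.0952%. At an unadjusted p under 0.05 (limma) there were 8 each, against 13.2% and 9.67% of all genes. The shBmal1 count ranged from 0 (without 36 or 40 h) to 4 (without 24 h).

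**Figure D4:**
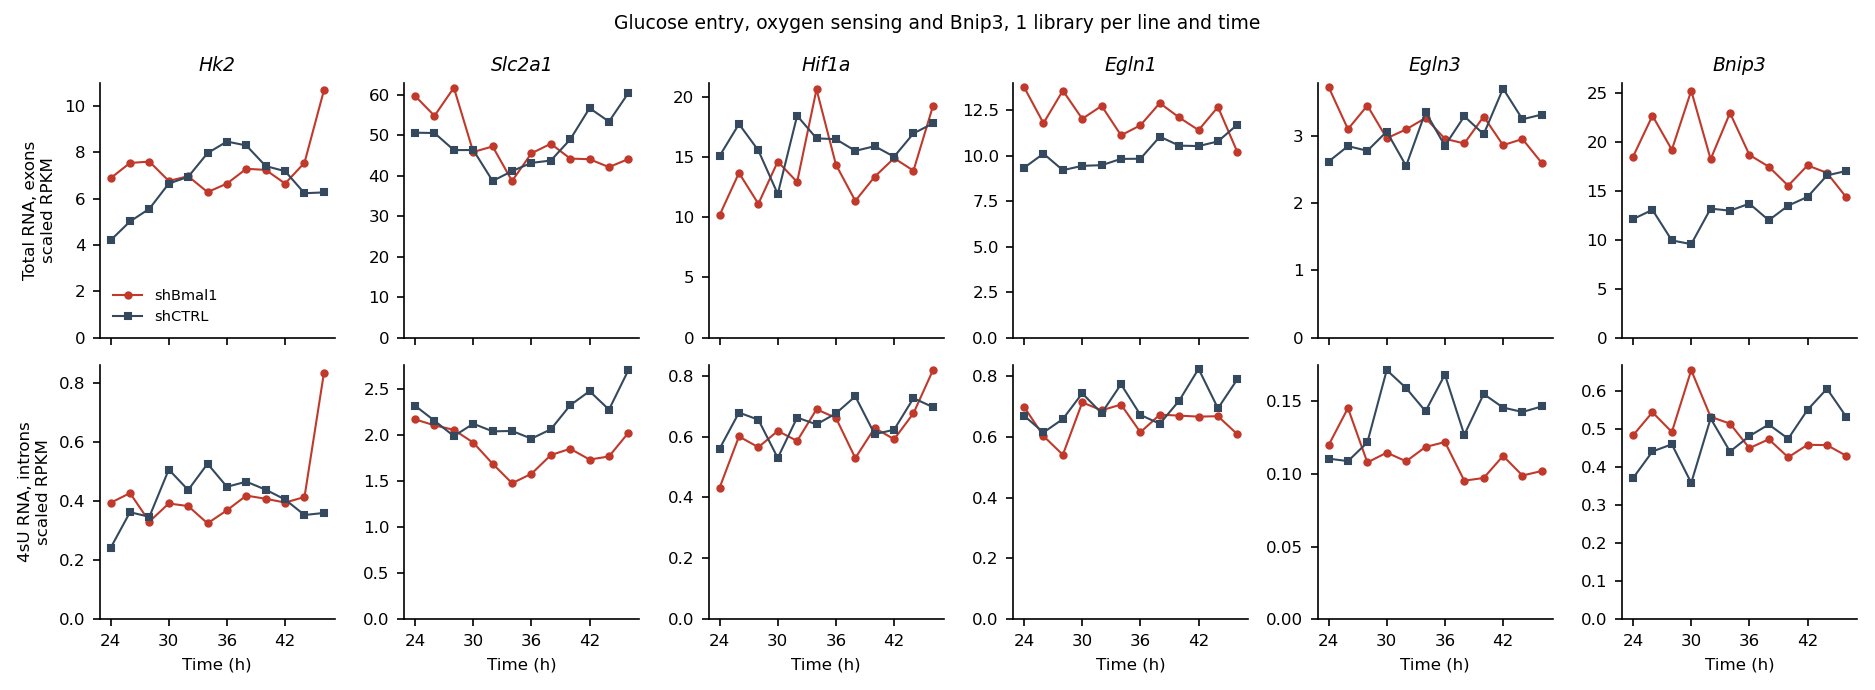
Scaled RPKM (vertical axes, from 0) of Hk2, Slc2a1, Hif1a, Egln1, Egln3 and Bnip3 against time in hours, in total exon reads (upper row) and 4sU intron reads (lower row), for shBmal1 (red circles) and shCTRL (dark squares), 1 library per point. Hk2 in shCTRL describes an arc from 4.20 RPKM at 24 h to 8.47 RPKM at 36 h and 6.28 RPKM at 46 h, while in shBmal1 it stays between 6.29 and 7.61 RPKM until the 10.7 RPKM of 46 h.

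Intron reads of 4sU RNA, as the measure of recent synthesis, were compared in the same way. These values are relative to the median gene: as deposited, the intron values of shBmal1 4sU rest on larger read totals. Unscaled they gave 0 members higher and 22 lower, with Ldha at -0.02 and Pkm at -0.19. The larger totals lower the introns of every gene in that group alike, by 0.456 log2 units on average. The unscaled counts therefore do not set the members apart from other genes, and the values that follow are scaled. Of 26 members tested, 10 were higher and 5 lower in shBmal1, against 22.5% and 22% of all 10509 genes, with a median of 0.04 for the members and 0.01 for all genes; Pdk3 and Ankrd37 were under the filter of 0.1 RPKM. Only Pgk1 passed with at least 0.5 (1.84, 2.13 and 3.16 RPKM in shBmal1, 1.23, 1.52 and 1.93 RPKM in shCTRL; 0.57 ± 0.06, adjusted p = 1.81e-07), as 1 higher and 0 lower, against 2.8% and 2.47% of all genes. Ldha (0.46 ± 0.09), Gpi1 (0.38 ± 0.05), Pfkl (0.35 ± 0.09), Tpi1 (0.34 ± 0.09), Pkm (0.29 ± 0.04), Pdk1 (0.25 ± 0.06), Eno1 (0.23 ± 0.06), Pfkm (0.20 ± 0.03) and P4ha1 (0.13 ± 0.04) were the others that were higher.

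The lower ones were Egln3, Slc2a1, Pfkfb3 and Pfkfb4 (-0.17 ± 0.06 each) and Bnip3l (-0.14 ± 0.06). The calls of Pfkfb3, Pfkfb4 and Bnip3l were each lost in 5 or more of the 12 fits that left out a time point, and the count of 5 was 2 without 28 or 34 h and 3 without 38, 40 or 42 h. In Ldha, Tpi1 and Pfkl the 4sU intron level of shBmal1 was highest at 24 h, with a further peak at 38 h (10.1 RPKM for Ldha), and lowest at 34 h (4.64 RPKM for Ldha), where shCTRL had 5.03 RPKM. That 34 h shBmal1 library correlated least with the others of its line in 4sU intron and 4sU exon reads (median r of 0.963 and 0.965 across genes). The 34 h shBmal1 library of total RNA did so in total exon reads (0.985).

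The remaining layers gave similar counts. In 4sU exon reads 13 of 27 members were higher and 3 lower, against 27.6% and 26.8% of all genes, and in total intron reads 10 of 25 were higher and 4 lower, against 28.9% and 27.3%. The lower count was 6 without 26 h in 4sU exon reads, and 2 without 36, 38 or 42 h in total intron reads. Ldha differed by 0.47 ± 0.07 in 4sU exon reads and by 0.79 ± 0.06 in total intron reads. Pgk1 differed by 0.59 ± 0.06 and 0.70 ± 0.04. Higd1a was lower in 4sU exon reads (-0.31 ± 0.09, adjusted p = 0.00613).

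The difference in mature level was set against the difference in new introns within each library pair. After scaling, the signed value in total exon reads lay above that in 4sU intron reads for 11 of 26 members and below it for 4, against 19.2% and 25.3% of all genes. On the deposited scale it lay above for 26 and below for 0, counts that carry the larger intron totals applied to every gene in shBmal1 4sU. Bnip3 led with 0.48 ± 0.05 (adjusted p = 9.33e-07): its mature transcript was higher in shBmal1, and its 4sU introns did not pass (0.04 ± 0.06). The 4sU exon reads of Bnip3, also of recently made RNA, were higher in shBmal1 by 0.49 (limma, adjusted p = 2.28e-05). Egln1 followed with 0.36 ± 0.06, since its mature transcript was higher and its 4sU introns gave -0.11 ± 0.05, and Egln3 with 0.31 ± 0.08, Ldha with 0.31 ± 0.06, Pfkfb4 with 0.27 ± 0.05 and Slc2a1 with 0.25 ± 0.04. The 4 on the other side were Ndrg1 (-0.21 ± 0.05), Pfkm (-0.17 ± 0.04), Pkm (-0.15 ± 0.04) and Gpi1 (-0.15 ± 0.04). Egln1 too was higher in 4sU exon reads (0.15, limma, adjusted p = 0.00302). For Bnip3 and Egln1 the exon and intron reads of 4sU RNA thus gave different results.

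The ratio of 4sU to total exon reads, which compares recent with standing mature RNA, was higher in shBmal1 for 4 of 27 members and lower for 4, against 16.2% and 11.9% of all genes. It was lower for Higd1a (-0.33 ± 0.07), Ldha (-0.29 ± 0.04), Pgk1 (-0.17 ± 0.05) and Pfkl (-0.12 ± 0.04), the last of which was lost without any of 7 time points (adjusted p up to 0.101). It was higher for Pdk3 (0.19 ± 0.06), Ndrg1 (0.18 ± 0.03), Eno1 (0.12 ± 0.04) and Pfkm (0.10 ± 0.04), of which Pfkm passed narrowly (adjusted p = 0.0497), and the higher count was 2 without 28, 34, 36, 42 or 44 h.

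**Figure D5:**
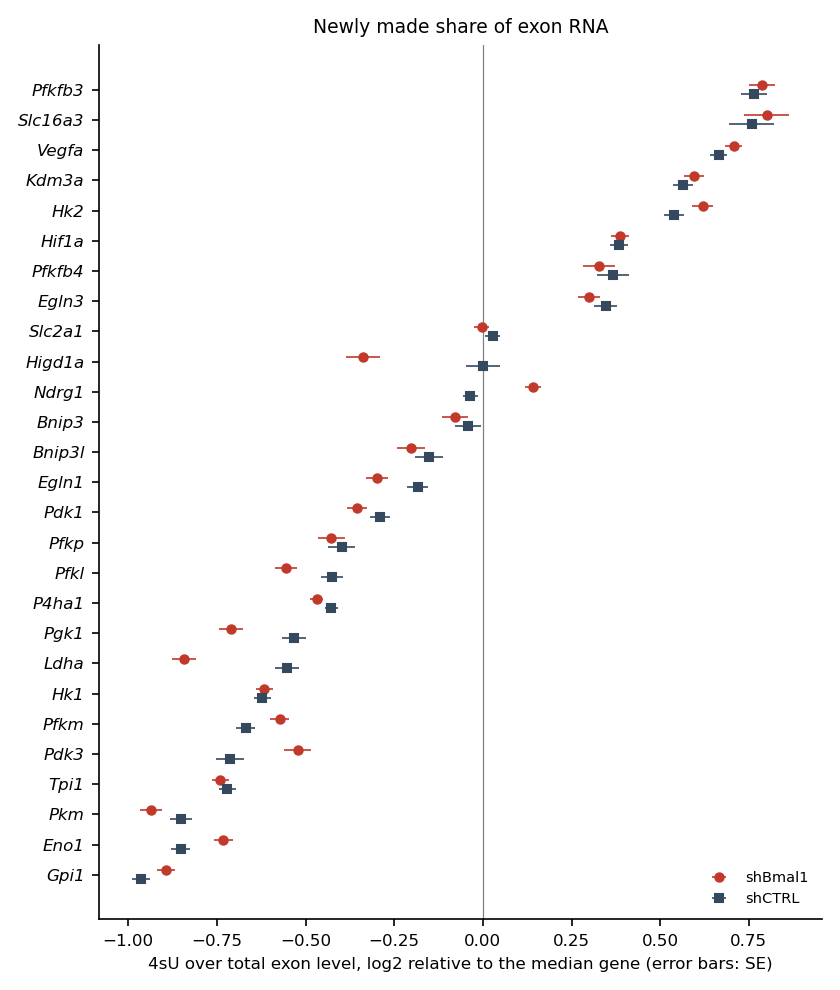
Level of 4sU over total exon reads, in log2 units relative to the median gene (horizontal axis), for the 27 genes tested in shBmal1 (red circles) and shCTRL (dark squares), with SE as bars. Pkm, Gpi1, Ldha, Tpi1, Eno1 and Pgk1 lie left of 0 in both lines and Pfkfb3, Slc16a3, Vegfa, Kdm3a, Hk2 and Hif1a to the right.

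Within each line the members spread widely in this newly made share, taken relative to the median gene. In shBmal1 9 of 27 members lay above and 16 below the median gene, against 43.4% and 43.1% of all genes, and in shCTRL 8 lay above and 15 below, against 42.8% and 42.4%. The low end held Pkm at -0.94 ± 0.03 in shBmal1 and -0.85 ± 0.03 in shCTRL, and Gpi1 at -0.89 ± 0.02 in shBmal1 and -0.96 ± 0.02 in shCTRL. Ldha stood at -0.84 ± 0.03 in shBmal1 and -0.55 ± 0.03 in shCTRL. The high end held Slc16a3 at 0.80 ± 0.06 in shBmal1 and 0.76 ± 0.06 in shCTRL, Pfkfb3 at 0.79 ± 0.04 and 0.76 ± 0.04, Vegfa at 0.71 ± 0.02 and 0.66 ± 0.02, Hk2 at 0.62 ± 0.03 and 0.54 ± 0.03, and Kdm3a at 0.59 ± 0.03 and 0.57 ± 0.03. The exon length behind Eno1 was 1887 bases in 4sU and 2004 bases in total RNA of both lines, which moves its share by 0.09 and leaves its line difference unmoved.

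Other genes of the same pathways were taken from wider lists. Of 42 other glycolysis and glucose genes tested in total exon reads, 20 were higher and 7 lower in shBmal1 (median difference 0.11), and of 39 other hypoxia genes 22 were higher and 13 lower (median 0.14), beside the 34.3% and 33.2% of all genes. Among the first, Ldhb (0.58 ± 0.04), the other lactate dehydrogenase subunit, Gbe1 (0.48 ± 0.06), of glycogen synthesis, and Pcx (0.39 ± 0.05), pyruvate carboxylase, were the most increased. Slc2a13 (-1.40 ± 0.09), a myo-inositol transporter, Pdp1 (-0.89 ± 0.08), a pyruvate dehydrogenase phosphatase, and Pdk2 (-0.88 ± 0.06) were the most decreased. Among the hypoxia genes Nfil3 (1.23 ± 0.10), also a clock output repressor, Fam162a (0.87 ± 0.05) and Ddit4 (0.81 ± 0.07), an inhibitor of mTORC1, were the most increased. The demethylase gene Kdm2b (-0.73 ± 0.04), Rcor2 (-0.68 ± 0.06) and the demethylase gene Kdm5b (-0.46 ± 0.05) were the most decreased.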

How the data were processed

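The authors deposited RPKM values (reads per kilobase of exon or intron, scaled to the library's total reads) per gene for 48 libraries of total and 4sU RNA. Per the submitters' processing notes, Trim Galore and HOMER 4.11.1 were used on the mouse build mm10 (GRCm38.p6), and no aligner is named there or in the labels. Per the labels' protocols, RNA was depleted of rRNA, libraries were strand-specific and paired-end, and 30 ug RNA went into the pull-down (a larger part of the sample in shBmal1).

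Low RPKM values were whole multiples of 1 read, within 0.02 reads, which gave back each library's read total and each gene's length. Intron and exon values rest on the same total in 36 libraries. In the shBmal1 4sU group, all 12 intron totals exceed the exon totals, by a factor of 1.35 to 1.39. Each layer was therefore scaled by the median ratio across genes, and levels printed are scaled RPKM. Of these, log2(RPKM + 0.1) for exons and log2(RPKM + 0.02) for introns were tested with limma 3.58.1 in R 4.3.3 (trend, robust), after filters of a mean of 0.5 and 0.1 RPKM, with 24-h and 12-h terms per line or a straight line per line. Fold changes on this scale understate those of low genes. P-values were adjusted by Benjamini-Hochberg over all genes. The scripts were checked on simulated data.

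Time points stand in for replicates, so p-values measure the spread of single libraries around the fitted curve. The members, wider lists and marker lists were chosen with earlier results of these data known. Per-library ranges are given for members with a line difference of at least 0.5 that passed, with a rhythm or rhythm difference that passed, or of oxygen sensing; other members are summarised, except Vegfa, whose range was added after its 46 h value was seen; from the wider lists the 3 largest called differences in each direction are named. RefSeq held a promoter window for 26 of the 28 members. Alternatives were the pseudocount, filter, scaling, time terms, gene length and leaving out each time point in both lines.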

Additional observations from a re-analysis of the deposited data

Results flagged for a closer look

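The time courses of total exon reads differed between shBmal1 and shCTRL, by the test of the difference itself, for Hk2 (adjusted p = 0.0463), Ldha (adjusted p = 0.0278) and Bnip3 (adjusted p = 0.0463). Each of these calls was lost in 7 to 9 of the 12 fits that left out a time point.

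The slope per 10 h in total exon reads, shBmal1 minus shCTRL, differed from 0 for 11 members. It was -0.48 for Pfkl, -0.47 for Bnip3, -0.43 for Ldha, -0.39 for Higd1a, -0.32 for Eno1, -0.32 for Tpi1, -0.32 for Slc2a1, -0.30 for Pdk1, -0.29 for Egln3, -0.28 for Pkm and -0.22 for Egln1. In 4sU intron reads the slope differed for Bnip3 (-0.37). All were fitted with limma, and in all of them the slope was lower in shBmal1; the shCTRL slope was negative for Pkm alone of the 11.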

How the results depend on the processing

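Counts of members past the threshold stayed within 1.5 times under another pseudocount, no filter on low values and 1 length per gene (38 of 38 counts each). On 1 length the sign of Ankrd37 in total exon reads turned to 0.25.

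With RPKM as deposited, 13 of 38 counts moved. In total exon reads 3 members were lower, 2 had a 12-h term in shBmal1 and 1 rose in shCTRL. In 4sU intron reads 0 were higher and 22 lower, 6 had a 24-h term in shBmal1 and 1 in shCTRL, and 0 rose in shBmal1, 0 rose in shCTRL and 0 differed in slope. In 4sU exon reads 1 was lower, and in exon minus intron 26 were higher and 0 lower. The 4sU intron differences turned to -0.42 (Hk2), -0.10 (Gpi1), -0.12 (Pfkl), -0.26 (Pfkm), -0.32 (Pfkp), -0.14 (Tpi1), -0.25 (Eno1), -0.19 (Pkm), -0.021 (Ldha), -0.43 (Slc16a3), -0.21 (Pdk1), -0.42 (Bnip3), -0.41 (Higd1a) and -0.34 (P4ha1). The exon minus intron differences turned to 0.42 (Gpi1), 0.38 (Pfkm), 0.42 (Pkm), 0.46 (Slc16a3), 0.54 (Pdk1), 0.43 (Hif1a), 0.45 (Vegfa), 0.36 (Ndrg1), 0.52 (Higd1a) and 0.40 (Kdm3a). The larger read totals behind the deposited introns of shBmal1 4sU lower the introns of every gene there by 0.456 log2 units on average. The exon scaling was left out too, with factors of 1.00 to 1.09 in shBmal1 and 0.95 to 1.00 in shCTRL total exon reads.

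Scaling by the 75th percentile gave, in 4sU intron reads, 4 members with a 24-h term in shBmal1 and 1 in shCTRL, and 0 rising in shBmal1, 0 rising in shCTRL and 0 differing in slope; 8 were lower in total intron reads. Without time terms 3 were lower in 4sU intron reads, 2 in total intron reads, and 2 had a higher 4sU/total ratio. A linear term beside the rhythm terms left, in total exon reads, 0 with a 24-h term in shBmal1, 1 rhythm difference, 2 rising and 0 falling in shBmal1, 1 rising in shCTRL and 0 slope differences, and in 4sU intron reads 0 with a 24-h term, 0 falling in shBmal1, 0 rising in shCTRL and 0 slope differences. In the first 6 time points 3 members were lower in total exon reads, and in the last 6 Pkm stood at -0.0024. The cause of these changes was not tested.

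Both lines share time points and no other label. Same-time libraries deviated together at r = -0.18 to 0.41 in total exon reads, with 9 of 12 over 0.1 and 4 of 12 correlating best with their own time. The highest r was 0.60 in 4sU exon, 0.47 in 4sU intron and 0.23 in total intron reads, with 10, 8 and 4 of 12 over 0.1. Libraries correlating best with their own time numbered 2, 5 and 2 of 12. The main tests did not take them as paired, and a time block was run as an alternative. With the time point as replicate block, 3 members were lower in 4sU intron reads, 1 in total intron reads and 2 had a higher 4sU/total ratio, and 9 of 12 counts stayed within 1.5 times.

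With each time point left out in both lines, 378 of 456 counts stayed within 1.5 times. The ranges of the others in total exon reads were 1 to 10 (24-h term, shBmal1), 2 to 5 (24-h, shCTRL), 0 to 7 (12-h, shBmal1), 0 to 5 (rhythm difference), 5 to 11 (slope difference), 0 to 1 (rising, shBmal1) and 1 to 3 (rising, shCTRL). In 4sU intron reads they were 2 to 5 (lower), 0 to 4 (24-h, shBmal1), 0 to 1 (24-h, shCTRL), 0 to 4 (12-h, shBmal1), 2 to 4 (falling, shBmal1), 0 to 1 (rising, each line) and 0 to 1 (slope difference). In the other layers they were 2 to 6 (lower, 4sU exon), 2 to 5 (lower, total intron) and 2 to 5 (higher 4sU/total ratio). With 1 library per line and time, no point has a replicate of its own.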
